A study of Mus musculus with 8 samples.

Results

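The genes described here are the transcription factors that set up the primitive endoderm, Gata4, Gata6, Sox17, Sox7 and Hnf4a, the growth factor receptor Pdgfra, and the endocytic proteins of endoderm epithelium, Dab2, Cubn, Amn and Lrp2. They were taken from the deposited table as the probe sets that the array's annotation pairs with exactly 1 of these symbols. Of the 10 genes listed, 8 were found, each with 1 probe set, among 14860 genes with a single-symbol probe set. Cubn and Lrp2 were not matched to a single-symbol probe set and were not analysed here.

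Expression was measured on Affymetrix arrays in trophectoderm of C57BL/6J mouse blastocysts at embryonic day 4.5. C57BL/6J dams ate a control diet (Lab Diet 5015) or a high fat diet (Teklad 06414) from weaning to 16 weeks of age and were then mated to C57BL/6J males. Trophectoderm was cut away at the abembryonic pole, opposite the inner cell mass, and the pieces from 5 blastocysts made 1 pool. There were 4 control diet pools and 4 high fat diet pools, 1 array each. Precision is limited by this number of arrays. The labels call them biological replicates. The labels do not tie pools to dams, so a p-value measures the spread between pools, which may be in part technical.

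Primitive endoderm is the epithelium that forms on the blastocoel face of the inner cell mass and later gives rise to visceral and parietal endoderm of the yolk sac. FGF signalling raises Gata6 in cells of the inner cell mass, and Pdgfra, Sox17, Gata4 and Sox7 follow in turn, while Hnf4a marks the visceral endoderm that forms later. Visceral endoderm takes up maternal nutrients through the large receptors megalin (Lrp2) and cubilin (Cubn). Amnionless (Amn) anchors cubilin in the membrane, and the clathrin adaptor Dab2 links these receptors to the endocytic coat. The tissue measured here is the neighbouring lineage, which does not normally form endoderm, so the question was which of these genes gave a signal in it and whether that signal differed with the dams' diet.

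Values are log2 signals, and a difference of 1 is a doubling. The background of an array was taken as the 95th percentile of its 842 probe sets for olfactory, vomeronasal, taste and trace amine receptors, families known from sensory cells. This percentile ran from 5.88 to 6.13 on control diet arrays and from 6.15 to 6.65 on high fat diet arrays, so the background itself read higher with the high fat diet. The median log2 difference between diets over all 16015 tested probe sets was +0.22, and 78.7% of them read higher with the high fat diet. High fat diet pool 3 stood apart. It had the highest background, 6.65, the fewest probe sets above it, 4723 against 5313 to 6635 on the other arrays, and correlated least with the rest (mean r 0.832, against 0.879 to 0.890 elsewhere).

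Of the 8 measured genes, 4 (Gata4, Gata6, Dab2 and Amn) lay above the background on all 8 arrays, against 24.2% of tested probe sets. Sox17 and Hnf4a lay around it, each above it on 3 arrays, and Sox7 and Pdgfra lay below it on every array. Against the stricter 99th percentile of the receptors, 2 genes, Gata6 and Dab2, lay above on all 8 arrays. In limma with Benjamini-Hochberg adjustment over 16015 probe sets, 0 of the 8 genes differed between diets. The background of such calls was 0% of probe sets in the higher direction and 0.00624% in the lower. At an unadjusted limma p under 0.05, 4 of the 8 read higher (Gata4, Gata6, Hnf4a and Amn) and none lower, against 30.1% of all tested probe sets higher and 1.79% lower. For 3 of the 8 (Gata4, Hnf4a and Amn) all high fat diet pools read above all control diet pools, against 25.4% of probe sets, and for none did they all read below, against 0.855%. The median log2 difference of the 8 genes was +0.25, beside +0.22 for all tested probe sets, and 44.2% of these exceeded it. Without high fat diet pool 3, 3 of the 8 had an unadjusted p under 0.05 in the higher direction, against 24.5% of probe sets.

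**Figure D1:**
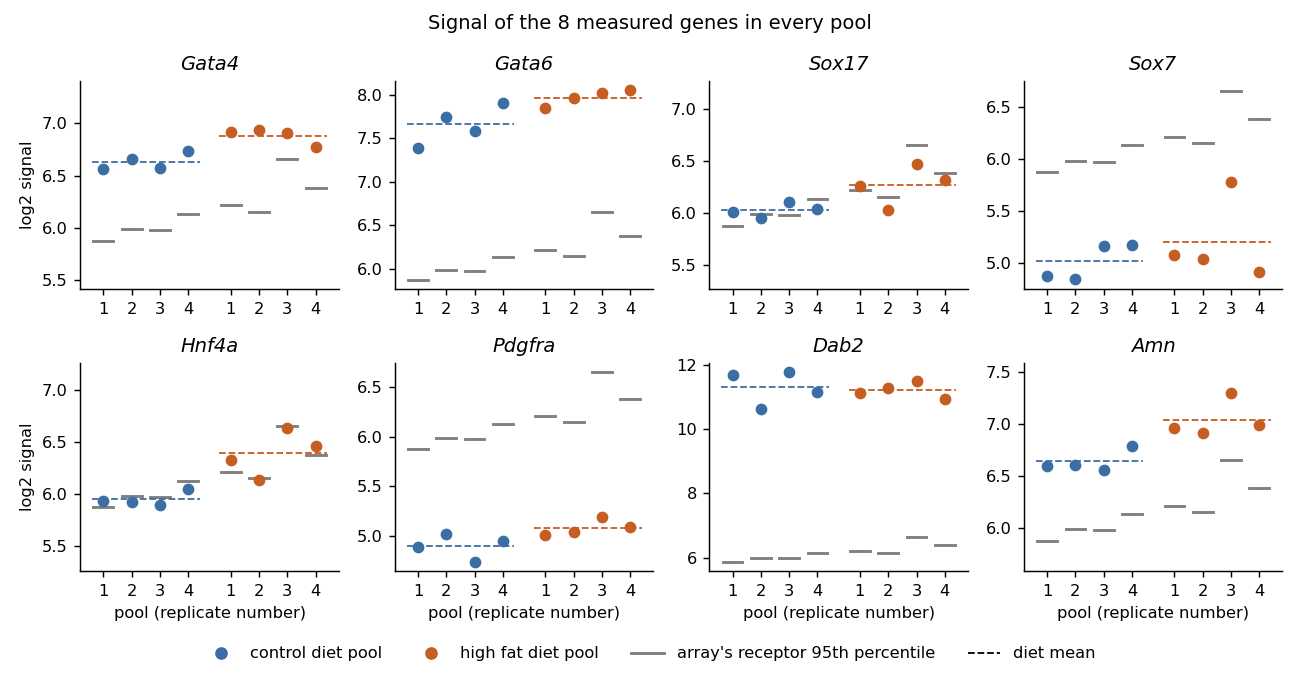
Log2 signal of each of the 8 measured genes in every pool (points, blue for control diet and orange for high fat diet), with the 95th percentile of receptor probe sets on the same array (grey bars) and the diet means (dashed lines). Dab2 lay from 4.55 to 5.82 above the grey bar, Sox7 and Pdgfra lay under it in all 8 pools, and the grey bar itself was highest in high fat diet pool 3.

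Gata6, the factor that starts the primitive endoderm programme and is also made in other early lineages, gave a signal clearly above background in every pool. It read at 7.39, 7.75, 7.58 and 7.91 in control diet pools 1 to 4 and at 7.85, 7.96, 8.02 and 8.05 in high fat diet pools 1 to 4. The groups overlapped, since control diet pool 4 read above high fat diet pool 1. The means were 7.66 ± 0.22 and 7.97 ± 0.09 (SD, n = 4 each), a log2 difference of +0.31 with an SE of 0.12 (limma adjusted p = 0.143). The signal stood 1.37 to 1.80 above the array's own background in all 8 pools, lowest in high fat diet pool 3. Measured from that background the diet means were 1.67 and 1.62. The difference of Gata6 depended on the scaling in size, +0.12 with array medians centred and +0.54 with quantile normalization, and was positive in every setting fitted with limma.

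Gata4, a second GATA factor that follows Gata6 in endoderm, stood closer to the background. Its signal was 6.56, 6.66, 6.57 and 6.74 in control diet pools 1 to 4 and 6.92, 6.94, 6.91 and 6.77 in high fat diet pools 1 to 4. All high fat diet pools read above all control diet pools, by 0.02 at the nearest pair, as did 25.4% of tested probe sets. The means were 6.63 ± 0.09 and 6.88 ± 0.08 (SD, n = 4 each), a log2 difference of +0.25 with an SE of 0.08 (limma adjusted p = 0.118). Relative to the array's background Gata4 stood 0.59 to 0.68 above it in control diet pools and 0.26 to 0.79 above it in high fat diet pools, so the groups overlapped on that scale. With cyclic loess the difference turned to -0.05.

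Sox17, an endoderm transcription factor of the HMG box family, read at the background. Control diet pools 1 to 4 gave 6.01, 5.95, 6.10 and 6.04, and high fat diet pools 1 to 4 gave 6.26, 6.03, 6.47 and 6.31. The groups overlapped through high fat diet pool 2. It lay above the background on 2 of 4 control diet arrays and on 1 of 4 high fat diet arrays, so the log2 difference of +0.24 (SE 0.11, limma adjusted p = 0.158) was measured at the background and is not exact. Its sign turned with cyclic loess, to -0.04. The related factor Sox7, which appears later in the sequence, lay between -1.47 and -0.81 of the background in all 8 pools. Its signals were 4.88, 4.85, 5.17 and 5.18 in control diet pools 1 to 4 and 5.08, 5.04, 5.78 and 4.92 in high fat diet pools 1 to 4. High fat diet pool 3 was the highest, and without it the difference between the diet means was -0.01, so no level of Sox7 is read from these arrays.

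Hnf4a, a nuclear receptor of visceral endoderm and liver, had the largest difference of the 8 genes in the deposited values while reading at the background. That order depended on the scaling, since with quantile normalization Gata6 (+0.54) and Amn (+0.30) exceeded Hnf4a (+0.25). With cyclic loess Dab2 (+0.1600) and, barely, Gata6 (+0.1503) exceeded Hnf4a (+0.1496). Control diet pools 1 to 4 gave 5.94, 5.93, 5.90 and 6.05, and high fat diet pools 1 to 4 gave 6.33, 6.14, 6.64 and 6.47, so the groups lay apart, as on 25.4% of tested probe sets. The means were 5.95 ± 0.06 and 6.39 ± 0.21 (SD, n = 4 each), a log2 difference of +0.44 with an SE of 0.12 (limma adjusted p = 0.115). Hnf4a lay above the background on 1 of 4 control diet arrays and 2 of 4 high fat diet arrays, between -0.09 and +0.12 of it in all 8 pools, so this difference is not exact either. With array medians centred the difference was +0.25 with the groups still apart, as on 7.07% of tested probe sets, and with cyclic loess it was +0.15. Measured from the array's background it was +0.08 and the groups overlapped.

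Pdgfra, the receptor for PDGF and an early surface marker of primitive endoderm cells, lay between -1.47 and -0.97 of the background in all 8 pools. It read at 4.89, 5.02, 4.74 and 4.95 in control diet pools 1 to 4 and at 5.01, 5.04, 5.19 and 5.09 in high fat diet pools 1 to 4. The groups overlapped, and no fold is given because both diets lay under the background. In bulk pools, fewer cells of a type and less RNA per cell cannot be told apart, which holds for each gene described here.

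**Figure D2:**
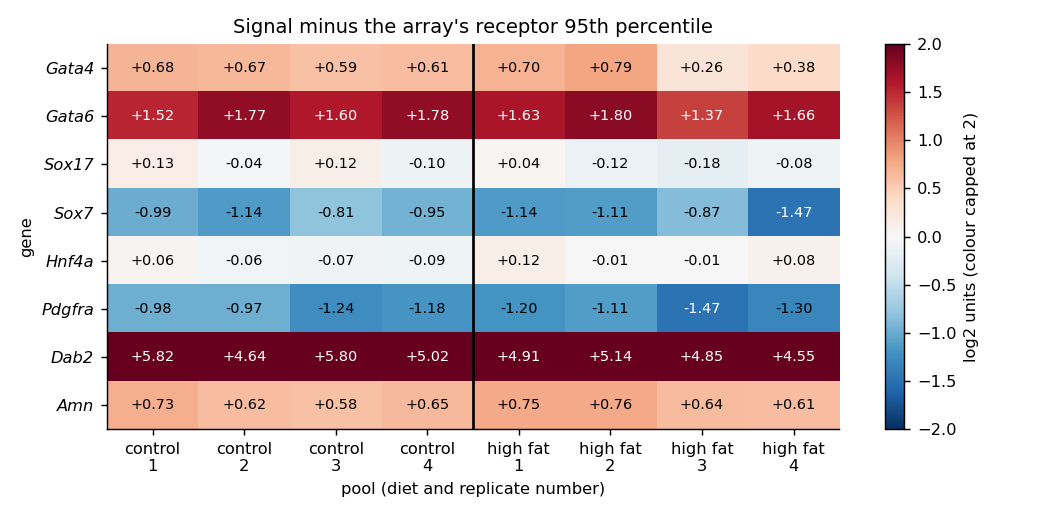
Log2 signal of each gene minus the 95th percentile of receptor probe sets on the same array, for control diet pools (left of the black line) and high fat diet pools (right), with the colour capped at 2 log2 units. Gata6, Dab2, Gata4 and Amn were positive in all 8 pools, Sox7 and Pdgfra negative in all 8, and Sox17 and Hnf4a near 0.

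Dab2 gave a signal 4.55 to 5.82 log2 units above the array's background in every pool. Dab2 is an adaptor that binds the tails of receptors of the LDL receptor family and recruits them to clathrin coats. Its signal was 11.70, 10.63, 11.78 and 11.16 in control diet pools 1 to 4 and 11.13, 11.29, 11.51 and 10.93 in high fat diet pools 1 to 4. The control diet pools spanned 1.15 log2 units and held both the highest and the lowest value, and the high fat diet pools lay between them. The means were 11.32 ± 0.53 and 11.21 ± 0.24 (SD, n = 4 each). The log2 difference of -0.10 had an SE of 0.27 and a 95% interval from -0.73 to +0.52, which as a high fat over control ratio runs from 0.605 to 1.43 (limma adjusted p = 0.791). Its sign turned without control diet pool 1 (+0.02) or control diet pool 3 (+0.05) and with cyclic loess (+0.16). Inner cell mass and epiblast markers, as the mean of 12 values centred over the arrays, read -0.450, +0.525, -0.555 and -0.279 in control diet pools 1 to 4. In high fat diet pools 1 to 4 they read +0.335, +0.076, +0.363 and -0.015. Control diet pool 2, where Dab2 was lowest, was the highest, with Tdgf1 at 10.33 (4.55 to 4.92 in the other control diet pools) and Pou5f1 at 11.72 (7.02 to 9.20), while Nanog was highest in control diet pool 1. The 12 markers did not move together there, since Gdf3 (4.91) and Zfp42 (7.23) had their lowest value of the 8 pools. In high fat diet pools 1 and 3 Utf1 read 11.38 and 11.52, against 5.32 to 6.29 in the other pools. The part of these markers in the Dab2 signal was not tested.

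Amn, the membrane partner of cubilin, lay above the background in all 8 pools. It read at 6.60, 6.61, 6.56 and 6.79 in control diet pools 1 to 4 and at 6.96, 6.91, 7.30 and 6.99 in high fat diet pools 1 to 4. Every high fat diet pool read above every control diet pool, and high fat diet pool 3 was the highest. The means were 6.64 ± 0.10 and 7.04 ± 0.17 (SD, n = 4 each), a log2 difference of +0.40 with an SE of 0.11 (limma adjusted p = 0.115). Without high fat diet pool 3 the difference of Amn was +0.32. With array medians centred it was +0.21 with the groups still apart, as on 7.07% of tested probe sets, and with cyclic loess +0.11. Its distance from the array's background was 0.65 ± 0.06 and 0.69 ± 0.08 (SD, n = 4 each), with overlapping groups.

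All start-site regions that the RefSeq table gives for Dab2, Hnf4a and Amn are shown, because Dab2 stood far above background in every pool and Hnf4a and Amn had the largest differences in the deposited values. Each runs from 250 bases before to 50 bases after a transcription start in RefSeq, build GRCm38.p6, printed 5′ to 3′ on the gene's strand, here + for all 5. Capitals mark the GATA words AGATAA or TGATAA on either strand.
Dab2, upstream start, chr15:6299539-6299838: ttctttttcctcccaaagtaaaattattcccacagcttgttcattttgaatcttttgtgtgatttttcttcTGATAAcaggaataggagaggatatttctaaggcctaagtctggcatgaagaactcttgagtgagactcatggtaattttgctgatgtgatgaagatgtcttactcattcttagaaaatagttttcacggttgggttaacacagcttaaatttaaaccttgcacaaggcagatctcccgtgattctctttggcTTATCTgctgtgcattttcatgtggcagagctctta
Dab2, downstream start, chr15:6386498-6386797: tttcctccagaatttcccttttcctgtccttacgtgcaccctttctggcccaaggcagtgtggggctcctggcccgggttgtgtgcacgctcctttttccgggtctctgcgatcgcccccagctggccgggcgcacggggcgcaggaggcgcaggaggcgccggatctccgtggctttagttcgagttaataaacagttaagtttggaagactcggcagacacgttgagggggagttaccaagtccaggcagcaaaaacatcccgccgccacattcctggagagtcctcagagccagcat
Hnf4a, upstream start, chr2:163506607-163506906: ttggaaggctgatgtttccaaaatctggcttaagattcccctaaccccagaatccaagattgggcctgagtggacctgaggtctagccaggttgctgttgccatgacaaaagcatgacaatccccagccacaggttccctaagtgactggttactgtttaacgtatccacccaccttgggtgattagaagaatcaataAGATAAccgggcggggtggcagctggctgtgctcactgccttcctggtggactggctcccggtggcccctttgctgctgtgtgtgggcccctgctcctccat
Hnf4a, downstream start, chr2:163546905-163547204: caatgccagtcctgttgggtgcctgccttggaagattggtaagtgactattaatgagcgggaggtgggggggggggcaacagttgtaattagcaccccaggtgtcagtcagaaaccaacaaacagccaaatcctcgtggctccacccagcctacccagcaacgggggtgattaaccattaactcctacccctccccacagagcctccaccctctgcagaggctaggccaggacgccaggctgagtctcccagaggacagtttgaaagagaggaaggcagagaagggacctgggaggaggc
Amn, chr12:111270846-111271145: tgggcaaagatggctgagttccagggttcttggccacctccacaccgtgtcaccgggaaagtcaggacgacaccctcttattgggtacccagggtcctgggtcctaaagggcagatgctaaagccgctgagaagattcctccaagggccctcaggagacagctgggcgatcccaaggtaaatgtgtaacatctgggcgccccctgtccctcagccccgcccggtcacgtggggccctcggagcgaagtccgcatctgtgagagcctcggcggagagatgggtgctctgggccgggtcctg

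The RefSeq table held 8 such regions for 6 of the 10 listed genes. Of these 8 regions, 2 held a GATA word, the upstream ones of Dab2 and Hnf4a, beside 18.6% of all 32851 regions of that length. In the upstream region of Dab2 the words began at base -179 and, on the opposite strand, at base 15, and in that of Hnf4a at base -52, counted from the start site as base 1. The SOX words ACAATG and ACAAAG, searched on both strands, were in 0 of the 8 regions and in 28.6% of all regions. A match is a run of letters, and the arrays hold no measurement of binding.

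The diet differences of these genes were set beside those of other probe sets in the same group by signal level. Probe sets were divided by mean signal into 10 groups of equal size, from 1, the dimmest, to 10. Sox7 and Pdgfra, below background on all arrays, were not compared. Sox17 differed by +0.24 in group 7, whose median was +0.29, and Gata4 by +0.25 in group 8, whose median was +0.30. Hnf4a, also in group 7, and Amn, also in group 8, lay above those medians. In group 10, the brightest, the median was -0.16. Dab2 at -0.10 lay near that median and Gata6 at +0.31 lay above it. Group 10 spans a wide range of signal, since it holds both Gata6 (diet means 7.66 and 7.97) and Dab2 (11.32 and 11.21). The median of the next dimmer group, 9, was +0.23, so the gap of Gata6 depends on the group it is set beside. These comparisons describe the arrays and carry no test.

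Since the whole high fat diet arrays read higher, the counts were repeated after other scalings, and the share of all probe sets is given in brackets. With array medians centred, 5 of the 8 genes had a difference above 0 (56.3% of probe sets), 2 of them at an unadjusted p under 0.05, Hnf4a and Amn (8.68%). Quantile normalization gave 7 above 0 (62.3%) and 3 at that p, Gata6, Hnf4a and Amn (9.98%). Cyclic loess gave 4 above 0 (49.7%) and 1 at that p, Hnf4a (4.1%). With arrays centred on the receptor probe sets, a scaling added after the data were seen, 5 were above 0 (52.5%) and 2 at that p, Hnf4a and Amn (6.91%). On that last scale the pools of Hnf4a and Amn lay apart by diet, as for 5.71% of probe sets. Measured from the array's own 95th percentile of receptors, 0 of the 8 genes did, as for 0.83% of probe sets. On that scale, which was not fitted, the difference of Gata6 was -0.05. In the 4 scalings fitted with limma, Hnf4a, Amn and Gata6 had a positive difference in each, and none of the 8 genes passed the adjusted threshold.

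**Figure D3:**
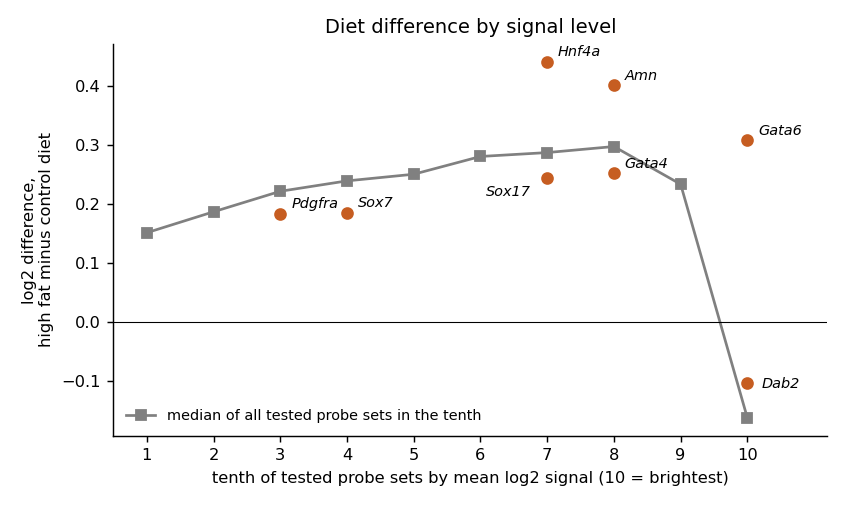
Log2 difference between diets (high fat minus control) of the 8 genes (orange points) against the signal group of its probe set (1 dimmest, 10 brightest), with the median of all tested probe sets in each group (grey squares). Sox17 and Gata4 lay just under the grey line and Hnf4a, Amn and Gata6 above it, while Sox7 and Pdgfra are drawn from probe sets below background on all 8 arrays.

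**Figure D4:**
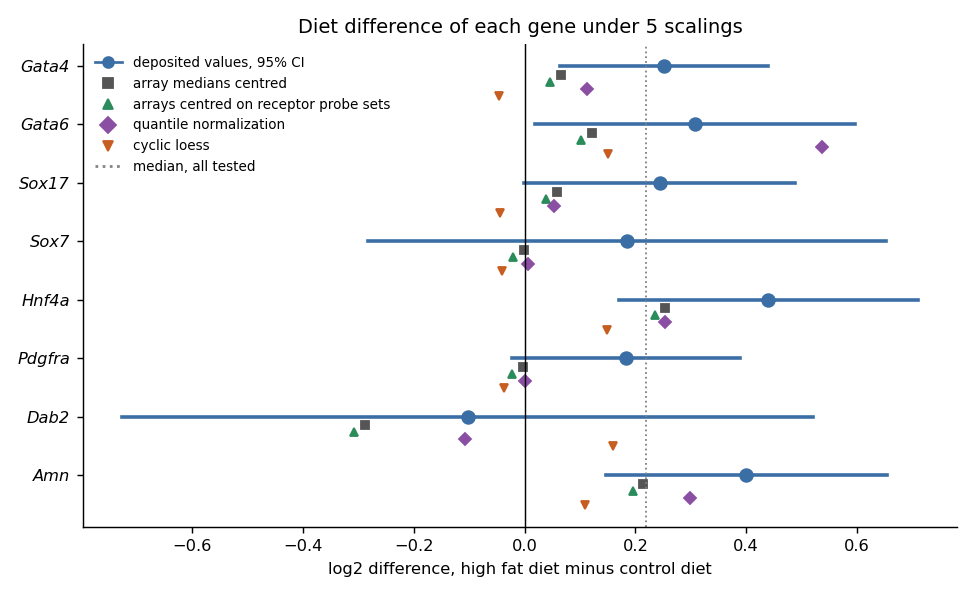
Log2 difference between diets (high fat minus control) for each gene with the deposited values and their 95% confidence interval (blue circles and bars), and under 4 other scalings of the arrays (other symbols). The dotted line is the median of all tested probe sets, +0.22. Hnf4a, Amn and Gata6 stayed above 0 under all 5 scalings, and Gata4, Sox17, Sox7, Pdgfra and Dab2 turned sign under at least 1 of them.

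Whether pools that read high for a gene also read high for its partner was examined for 7 pairs, of which 4 could be measured. Sox7 and Pdgfra lay below background on every array, and Sox17 and Hnf4a lay around it. Only for Gata4 with Gata6 did both genes lie above background on all 8 arrays, so the other pairs say little about expression. With array medians centred, Pearson's r over 8 pools was 0.38 for Gata4 with Gata6 (Spearman's rho 0.19), 0.36 for Sox17 with Sox7 (rho 0.12), 0.21 for Gata6 with Pdgfra (rho 0.21) and -0.08 for Gata4 with Hnf4a (rho 0.07). Exact two-sided permutation p-values for r were 0.355, 0.401, 0.601 and 0.852 in that order, adjusted over the 4 pairs to between 0.802 and 0.852. Those for rho were 0.665, 0.793, 0.619 and 0.882, each adjusted to 0.882. Without the 2 pools farthest from the median of the first gene, r was 0.36, 0.17, 0.09 and -0.39. The same pairs gave r of 0.80, 0.70, 0.78 and 0.73 in the deposited values before array centring, with exact permutation p-values of 0.0153, 0.0488, 0.0226 and 0.0481, adjusted to between 0.0452 and 0.0488, so the relation did not hold once each array's median was removed. As deviations from the diet means of the centred values, r was 0.26, 0.38, 0.25 and -0.78. The last had a permutation p of 0.0173, adjusted to 0.069, and a rho of -0.67 (permutation p = 0.0831, adjusted to 0.332). These p-values are approximate, since deviations from a group's mean are not independent of each other.

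The genes whose pattern over pools was most like that of the 4 members above background on all arrays were taken from 3698 genes that lay above background on all 8 arrays. Likeness was Pearson's r over the 8 arrays after removal of array medians and diet means. For Dab2 they were Epn3 (r = 0.98), an endocytic epsin, Cap1 (0.96), an actin regulator, and Mccc2 (0.95), an enzyme of leucine breakdown. Gata6 was most like Trim8 (0.98), Gar1 (0.94) and Sh3bgrl3 (0.92). For Gata4 the nearest were Anxa7 (0.98), Micos13 (0.96) and Rab10 (0.95), and for Amn Copz1 (0.99), Entpd2 (0.99) and Adcy7 (0.98). Such values are the top of 3698 candidates over 8 arrays and are given as a description.

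Other genes that act beside these members were read from 6 lists. In limma over all tested probe sets 0 genes of these lists passed in either direction. Of the FGF and PDGF inputs all 11 were measured and 10 had a difference above 0, beside 78.7% of all probe sets. At an unadjusted p under 0.05 there were 4 higher (30.1% of all probe sets) and 1 lower (1.79%). Their median log2 difference was +0.34, and +0.15 with array medians centred and +0.10 with cyclic loess. Fgf4, the ligand made by epiblast cells that drives primitive endoderm, read at 7.39 ± 0.26 and 8.14 ± 0.38 (SD, n = 4 each; adjusted p = 0.115). Of its receptors, Fgfr1 lay above background on no array. Fgfr2 differed by -1.78 with overlapping groups (SE 0.50, limma adjusted p = 0.115). Grb2, the adaptor between the receptor and Ras, differed by +0.80, with 9.15 in high fat diet pool 3 and 7.93 to 8.03 in the other high fat diet pools. Of the family relatives and cofactors 9 of 12 were measured and 8 had a difference above 0, beside 78.7% of all probe sets. Their median was +0.30, and +0.11 with array medians centred and -0.0018 with cyclic loess. At an unadjusted p under 0.05 there were 2 higher (30.1%) and 1 lower, Gata3 (1.79%). Gata5 and Zfpm2 lay above background on no array, while Sox18 (+0.30) and Foxa2 (+0.23), another endoderm factor, lay above it on all 8, and both turned sign with cyclic loess.

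The partners and adaptors of the receptors had a median log2 difference of -0.01 over 12 of 14 listed genes, and one of -0.20 with array medians centred. Of the 12, 6 had a difference above 0, beside 78.7% of all probe sets. At an unadjusted limma p under 0.05 there were 3 higher (30.1% of all probe sets) and 1 lower (1.79%). The lower one was Clcn5, at -1.73 with overlapping groups (SE 0.50, limma adjusted p = 0.115). Lrpap1, the chaperone of megalin in the endoplasmic reticulum, read at 11.99, 12.74, 12.25 and 12.55 in control diet pools 1 to 4 and at 11.19, 12.38, 8.09 and 12.72 in high fat diet pools 1 to 4. High fat diet pool 3 was the low one, and the groups overlapped (log2 difference -1.29, SE 0.95, limma adjusted p = 0.346). Numb, an adaptor that binds receptor tails as Dab2 does, differed by -0.23, and by +0.35 without control diet pool 3. Myo6, a motor that Dab2 binds, and Lrp1, a relative of megalin, lay above background on no array. Of the clathrin coat and endosome genes 12 of 14 were measured, with a median of -0.07, and one of -0.25 with array medians centred. A difference above 0 was found for 5 of the 12, beside 78.7% of all probe sets. At that unadjusted p there were 1 higher (30.1%) and 0 lower (1.79%). Clathrin heavy chain Cltc (-0.06) and light chain Clta (+0.09) lay above background on all arrays (limma adjusted p = 0.872 and 0.560). The adaptor subunit Ap2a1 differed by +0.41 (adjusted p = 0.115), and Ap2m1 by -0.59, which was +0.27 without high fat diet pool 3.

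Products of the later endoderm layers were read next. Of the visceral endoderm products 8 of 12 were measured and 7, among them Afp, Ttr, Rbp4 and Apoa4, lay above background on no array. Apoe, which many tissues make, was the 1 above it on all 8. The list's median log2 difference was +0.20, and +0.02 with array medians centred. At an unadjusted limma p under 0.05 it had 2 higher (30.1%) and 0 lower (1.79%). Of the parietal endoderm and matrix genes, many of which other epithelia also make, 13 of 14 were measured. Of these, 5 lay above background on all 8 arrays (Col4a1, Col4a2, Lamb1, Lamc1 and Nid1) and 2 on none (Thbd and Vim). Their median log2 difference was -0.14, and -0.33 with array medians centred. Of the 13, 6 had a difference above 0, beside 78.7% of all probe sets. At an unadjusted limma p under 0.05 there were 5 higher (30.1% of all probe sets) and 1 lower (1.79%). Col4a1, a collagen of basement membranes, read at 6.65 ± 0.06 and 7.10 ± 0.19 (SD, n = 4 each; limma adjusted p = 0.115). Sparc differed by -0.32 and Lama1 by -0.17 (adjusted p = 0.735 and 0.755 in limma).

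**Figure D5:**
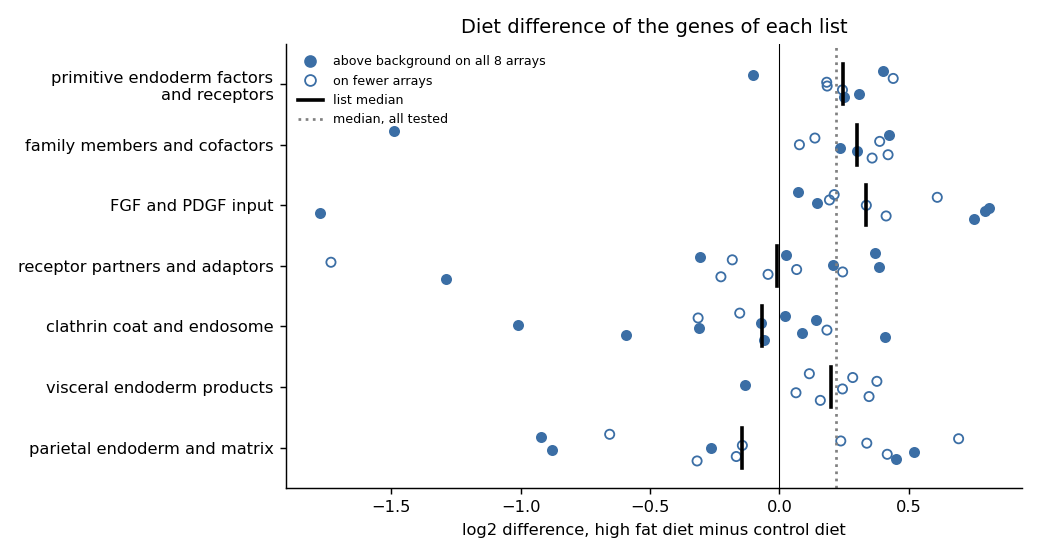
Log2 difference between diets (high fat minus control) of the measured genes of the 8-gene endoderm list and of 6 related lists, filled where the gene lay above background on all 8 arrays and open where on fewer, with the list median (black bar) and the median of all tested probe sets (dotted line, +0.22). The endoderm list had a median of +0.25, and the clathrin and endosome list one of -0.07.

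Markers of the cells a dissected piece could hold were read from the same arrays. Of 10 measured trophectoderm markers 7 lay above background on all 8 arrays, including Cdx2, Gata3 and Krt18, and none on no array. The log2 of their summed signal ran from 12.86 to 13.73 in control diet pools and from 13.15 to 13.58 in high fat diet pools. At an unadjusted limma p under 0.05, 2 of the 10 read lower with the high fat diet, Gata3 and Fgfr2, against 1.79% of tested probe sets. None read higher at that p, against 30.1%. Gata3, a trophectoderm transcription factor, read at 11.14 in control diet and 9.65 in high fat diet pools on average (limma adjusted p = 0.132). Every high fat diet pool of Gata3 read below every control diet pool, as for 0.855% of probe sets. Of 12 inner cell mass and epiblast markers 5 lay above background on all arrays, including Pou5f1, and 4 on none (Sox2, Esrrb, Gdf3 and Dppa4). Their summed signal ran from 9.87 to 12.47 in control diet pools and from 10.77 to 12.13 in high fat diet pools. It includes Utf1 at 11.38 and 11.52 in high fat diet pools 1 and 3. Of these 12 markers, 10 had a difference above 0, beside 78.7% of tested probe sets. At an unadjusted limma p under 0.05 there were 4 higher (30.1%) and 0 lower (1.79%). For 3 of the 12 all high fat diet pools read above all control diet pools, against 25.4%. Their median log2 difference was +0.28, and +0.10 with array medians centred and +0.11 with cyclic loess. Of 10 uterine markers 5 lay above background on all arrays (Col1a1, Col1a2, Col3a1, Hand2 and Hoxa10), and Pgr, Ltf, Calb1 and Muc1 on none. Their summed signal ran from 9.39 to 9.67 in control diet pools and from 9.76 to 10.30 in high fat diet pools, apart by diet. The arrays' backgrounds also lay apart, and the cause was not tested. The median log2 difference of the uterine list was +0.41, and +0.23 with array medians centred and +0.12 with cyclic loess. At an unadjusted limma p under 0.05, 8 of the 10 read higher, against 30.1% of tested probe sets. For the 7 measured blood and immune markers the summed signal ran from 7.97 to 8.08 and from 8.14 to 8.51. Cx3cr1 lay above background on all arrays and the other 6 on none. At an unadjusted limma p under 0.05, 5 of these 7 read higher, against 30.1% of tested probe sets. Their median log2 difference was +0.23, and +0.05 with array medians centred and +0.03 with cyclic loess. The summed signal of the 8 endoderm genes, most of it Dab2, ran from 11.09 to 11.998 and from 11.39 to 11.86. Their mean log2 signal ran from 6.68 to 6.85 in control diet pools and from 6.92 to 7.23 in high fat diet pools, apart by diet. The medians of the whole arrays also lay apart, at 5.60 to 5.71 and at 5.76 to 5.96. With array medians centred, the median log2 difference of the 8 genes was +0.06. The part of these other cells in the endoderm signals was not tested.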

How the data were processed

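Trophectoderm pools from dams on 2 diets were hybridised to Affymetrix arrays. Values in the deposited table are on a log2 scale. RMA and Partek, with no version, are named in the submitters' processing notes. Per the labels' protocols, RNA was amplified in successive rounds, which can widen the spread of dim genes. The table held 23332 probe sets, and 16015 with at least 1 symbol were tested (14996 with exactly 1). Symbols were updated by gene ID through RefSeq (GRCm38.p6), which matched 14941.

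The diet contrast was fitted over the 8 arrays by limma 3.58.1 under R 4.3.3, with moderated variances and no filter on dim probe sets. Its two-sided p-values were adjusted by Benjamini-Hochberg across every tested probe set, with a threshold of 0.05. For each gene the probe set with the highest mean was read. In the 6 related lists the first 4 measured genes in list order were named. Genes and lists were chosen with earlier results of these data known. Alternatives changed scaling, probe sets, variance model, block and arrays, and centring on receptors was added after the data were seen. The fit was tested on simulated data with independent noise and no shift of whole arrays, so that test does not cover the shift seen here.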

Additional observations from a re-analysis of the deposited data

Results flagged for a closer look

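A pool far from the other 3 of its group, by Dixon's ratio of gap to range at the 95% level, was found in 4 of 64 groups of 4 pools (32 genes in 2 diets), and chance gives about 1 in 20. Among the 8 endoderm genes it was found once, for Gata4, whose high fat diet pool 4 read 6.77 against 6.91 to 6.94 in the others (ratio 0.852). Among the genes of related lists, Grb2 was high in high fat diet pool 3 (9.15 against 7.93 to 8.03, ratio 0.914) and Ap2m1 low in the same pool (9.71 against 12.94 to 13.35, ratio 0.887). Numb was high in control diet pool 3 (8.28 against 5.91 to 6.06, ratio 0.939).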

How the results depend on the processing

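No endoderm gene passed the limma threshold in any setting run, and over all settings their adjusted p ran from 0.074 to 0.998. Of 140 values of single genes under the alternatives, 128 kept the sign of the deposited values and 12 turned. With array medians centred Sox7 was -0.0011 and Pdgfra -0.0028, and with receptors centred -0.0207 and -0.0224. With cyclic loess Gata4 was -0.0455, Sox17 -0.0446, Sox7 -0.0414, Pdgfra -0.0370 and Dab2 +0.1600. With 1 array left out Dab2 ran from -0.3311 to +0.0519 and Sox7 from -0.0072 to +0.2807. The median of the 8 genes, +0.25, was +0.0619 with array medians centred, +0.0832 with quantile normalization, +0.0357 with cyclic loess and +0.0423 with receptors centred. The 4 genes at an unadjusted p under 0.05 became 2, 3, 1 and 2 in that order. They were 2 among probe sets above background on at least 4 arrays, a filter that 4 of the 8 genes passed. The count was 6 with no variance moderation and 5 with array weights. It was 3 with the replicate block and 3 with trended, robust variances, where Gata6 had an unadjusted limma p of 0.183. With 1 array left out it was 3 or 4. The 4 genes above background on all arrays became 2 with the 99th percentile. Over all probe sets, the 1 call lower became 0 with quantile normalization, cyclic loess, no variance moderation (then 1 higher) and the replicate block, and 0 to 2 with 1 array left out. The replicate block changed no call of the 8 genes, and the replicate numbers did not pair the pools (r of deviations from the diet means of same-numbered arrays from -0.02 to 0.08). Before array centring the 4 pair correlations passed, with r of 0.7986, 0.7016, 0.7755 and, turned from -0.08, 0.7311 for Gata4 with Hnf4a. Named genes of related lists turned sign as follows. With cyclic loess Sox18 was -0.0018, Foxa2 -0.0645, Lrp1 -0.0401, Cltc +0.1994, Afp -0.0386, Rbp4 -0.1736 and Apoa4 -0.0110. With array medians centred Clta was -0.0992, Afp -0.0275 and Rbp4 -0.1216, with receptors centred -0.1188, -0.0471 and -0.1412, and with quantile normalization Afp was -0.0200 and Rbp4 -0.1225. With array weights Ap2m1 was +0.0940. With 1 array left out Numb ran from -0.4384 to +0.35, Myo6 from -0.1241 to +0.0760, Cltc from -0.2260 to +0.13, Ap2m1 from -0.9377 to +0.27, Sparc from -0.7424 to +0.28, Lama1 from -0.3995 to +0.21 and Rbp4 from -0.0589 to +0.1370. The cause of these shifts was not tested. Another probe set per gene could not be tried, since each had 1. Signal over background limits Sox17, Sox7, Hnf4a and Pdgfra.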
